A study of Arabidopsis thaliana with 12 samples.

Results

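The genes described here are AT1G35510 and AT5G63390, both of the O-fucosyltransferase family, and AT4G19900, a glycosyltransferase-related gene. They account for 3 of the 613 tested features annotated with exactly 1 gene of Arabidopsis thaliana, on an array table of 3439 features. Each gene has 1 such feature: 473 for AT1G35510, 2772 for AT5G63390 and 371 for AT4G19900. The RefSeq gene table lists all 3 as protein-coding, with 1 transcript each for AT1G35510 and AT5G63390 and 2 for AT4G19900.

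The samples were 12 arrays of total RNA from wild-type cell culture, ecotype Columbia 0. On 6 arrays the culture had received water, and on 6 it had received cytokinin for 2 h. The labels describe the control both as treated with water and as untreated, without a duration. Neither the kind of cytokinin nor its dose is given in the sources used here. The arrays of each group are numbered 1 to 6, and nothing states whether the numbers are separate cultures, so the spread between arrays may be technical.

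Glycosyltransferases move a sugar from an activated donor onto a protein, lipid, polysaccharide or small molecule, and many of them work in the Golgi apparatus. O-fucosyltransferases are named after animal enzymes that place fucose from GDP-fucose on serine or threonine residues of proteins. In plants the family is large, the acceptor is known for few of its members, and some relatives act as rhamnosyltransferases on pectin. Cytokinins are adenine-derived hormones that are perceived by histidine kinase receptors and promote cell division in culture together with auxin.

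The comparison of water with cytokinin asks which transcripts of the culture differ after the hormone. The 3 genes were chosen by their adjusted p in this comparison on these same arrays, where each passed 0.05. Their changes are therefore given as a description, and nothing is inferred from the fact that they passed. AT1G35510 was 1.55-fold higher with cytokinin and AT4G19900 was 1.23-fold higher. AT5G63390 was lower, with 0.789 of its water level. The 2 O-fucosyltransferase family genes thus moved in opposite directions. Without a block for the replicate number, 1.1% of the 3091 features tested rose and 0.453% fell past the threshold. With the block these shares were 6.47% and 5.21%. The block takes the numbers as independent of each other, which is not known, so the adjusted p with the block may be too small. On means of numbers 1 and 2, 3 and 4, and 5 and 6, with these sets as a block, AT1G35510 passed (limma, adjusted p = 0.0186). AT5G63390 (adjusted p = 0.0595) and AT4G19900 (adjusted p = 0.0908) then did not. All values below are normalized intensities on a linear scale unless another scale is named. RNA came from whole culture, so fewer cells expressing a gene and less of its RNA per cell cannot be told apart.

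AT1G35510 gave normalized intensities of 3.67, 3.76, 4.57, 4.79, 3.06 and 3.29 on water arrays 1 to 6. On cytokinin arrays 1 to 6 it gave 5.26, 5.55, 6.33, 6.75, 5.79 and 5.73. Every cytokinin array lay above every water array, with the highest water value at 4.79 and the lowest cytokinin value at 5.26. Such a separation in the upward direction was seen for 1.49% of all features tested. Arrays 3 and 4 were the highest in both groups, and water arrays 5 and 6 were the lowest of all 12. The mean was 3.86 ± 0.692 in water and 5.9 ± 0.544 in cytokinin (SD, n = 6 each). The coefficient of variation was 17.9% in water and 9.22% in cytokinin. The log2 change was 0.63 with an SE of 0.111 (limma, adjusted p = 0.0147), and 4 of the 3091 features, AT1G35510 included, had a rise of this size or more. A block for the replicate number lowered the SE to 0.065 (adjusted p = 0.000718).

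AT5G63390 gave 1.33, 1.28, 1.51, 1.49, 1.47 and 1.36 on water arrays 1 to 6. On cytokinin arrays 1 to 6 it gave 1.06, 1.08, 1.23, 1.23, 1.05 and 1.01. All 6 cytokinin values were below all 6 water values, with a gap between 1.23 and 1.28. A downward separation of this kind was seen for 0.679% of the features tested. Array 3 was the highest in water, and arrays 3 and 4 were the highest in cytokinin, as for AT1G35510. The mean was 1.41 ± 0.0937 in water and 1.11 ± 0.0964 in cytokinin (SD, n = 6 each), so the 2 groups had a like spread. The log2 change was -0.34 with an SE of 0.068 (limma, adjusted p = 0.0245). A fall of at least this size was found for 29 features, AT5G63390 among them. The block on replicate number brought the SE to 0.044 (adjusted p = 0.00142).

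AT4G19900 was the dimmest of these features, and its lowest value was 2.64 times the floor of 0.258 that was applied before the log scale. Its normalized intensities on water arrays 1 to 6 were 0.702, 0.681, 0.733, 0.768, 0.785 and 0.8. On cytokinin arrays 1 to 6 they were 0.845, 0.918, 0.9, 1.06, 0.857 and 0.925. The groups did not overlap, but the highest water value (0.8) and the lowest cytokinin value (0.845) were close. An upward separation was seen for 1.49% of all features tested. On the values as deposited the groups did overlap, with water values up to 0.826 and cytokinin values from 0.824. Cytokinin array 4 stood above the other 5 arrays of its group. The mean was 0.745 ± 0.0476 in water and 0.918 ± 0.0776 in cytokinin (SD, n = 6 each). The log2 change was 0.30 with an SE of 0.066 (limma, adjusted p = 0.0426), and it was 0.26 (adjusted p = 0.069) without cytokinin array 4. On all arrays, 51 of the 3091 features, AT4G19900 included, rose by at least as much as this gene. With replicate numbers blocked, the SE was 0.051 and the adjusted p was 0.00592. This gene was the nearest to the threshold of the 3. Among all features with 1 gene, TCP15 (adjusted p = 0.0487) lay closest inside it and Z-ISO (0.0515) closest outside.

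**Figure D1:**
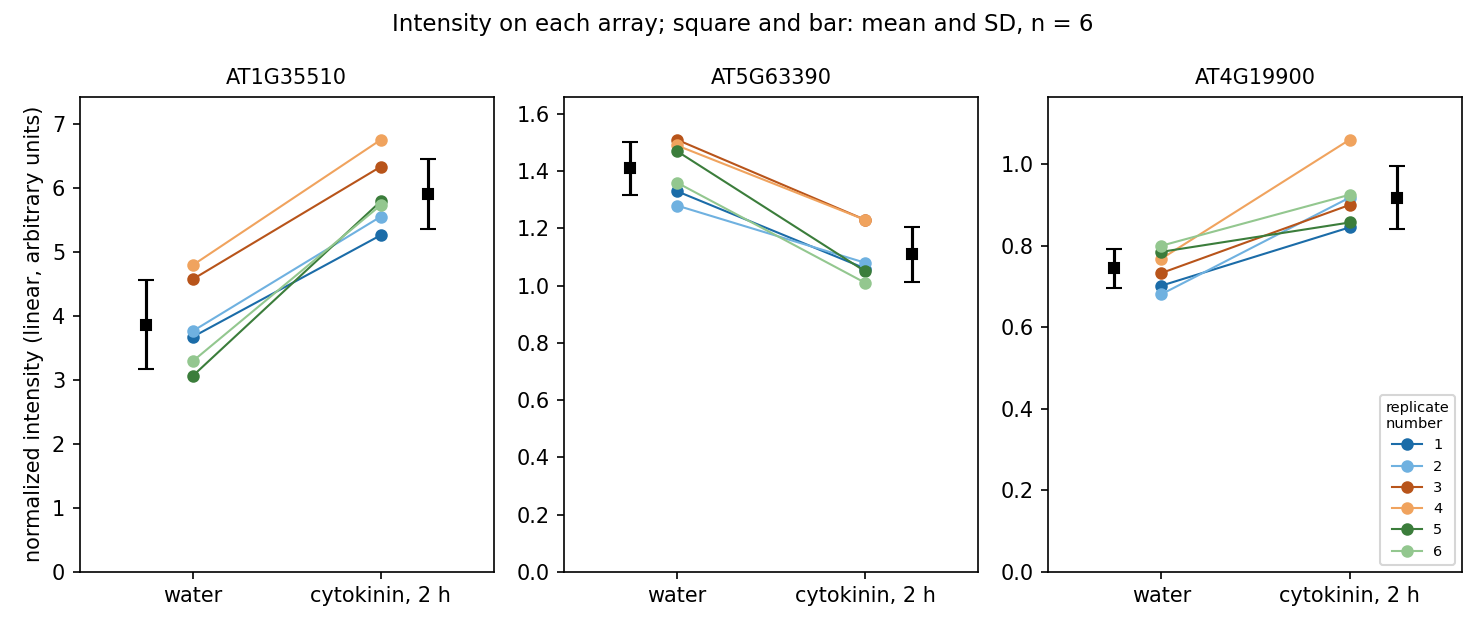
Normalized intensity (linear, arbitrary units) of AT1G35510, AT5G63390 and AT4G19900 on the 6 water and 6 cytokinin arrays, with a line joining arrays of the same replicate number and a black square and bar for each group's mean and SD (n = 6). Each line rises for AT1G35510 and AT4G19900 and falls for AT5G63390, and the lines for numbers 5 and 6 are the steepest for AT1G35510.

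The size of the difference varied with the replicate number. Arrays of the same number deviated together across features, so the 6 same-numbered differences are given as pairs. For AT1G35510, cytokinin minus water was 0.52, 0.56, 0.47, 0.49, 0.92 and 0.80 on the log2 scale in pairs 1 to 6. Values were close within pairs 1 and 2 and within pairs 3 and 4, and pairs 5 and 6 had the largest rises. In these pairs the water level was low, at 3.06 and 3.29, while the cytokinin level of 5.79 and 5.73 was within the range of the other arrays. AT5G63390 differed by -0.33, -0.24, -0.29, -0.27, -0.48 and -0.44 in pairs 1 to 6. Its largest falls also lay in pairs 5 and 6, where cytokinin arrays were the lowest (1.05 and 1.01). For AT4G19900 the differences were 0.27, 0.43, 0.30, 0.47, 0.13 and 0.21, and pairs 5 and 6 had the smallest. The mean difference of pairs 5 and 6 was 0.86 for AT1G35510, -0.46 for AT5G63390 and 0.17 for AT4G19900. For pairs 1 and 2 these means were 0.54, -0.28 and 0.35, and for pairs 3 and 4 they were 0.48, -0.28 and 0.38. Whether the response differs between pairs was not tested, since the labels give no batches and the grouping of numbers comes from the data. The sign was the same in all 6 pairs for each gene. All 6 differences were above 0 for 10.1% of the features tested and below 0 for 8.06%.

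**Figure D2:**
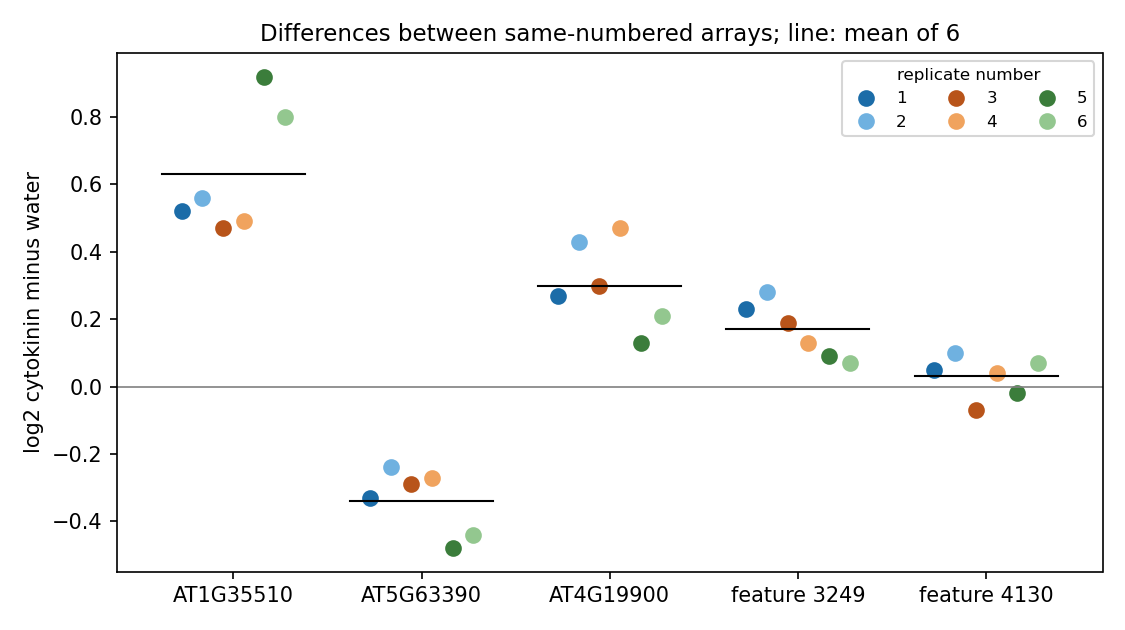
Difference between the cytokinin and the water array of each replicate number (log2 scale) for AT1G35510, AT5G63390, AT4G19900 and the features 3249 and 4130, which list several genes; each point is 1 pair and the black line is the mean of 6. Pairs 5 and 6 (green) have the largest rises of AT1G35510 (0.92 and 0.80), the largest falls of AT5G63390 (-0.48 and -0.44) and the smallest rises of AT4G19900 (0.13 and 0.21).

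A further feature listed each of the O-fucosyltransferase family genes together with others, and these features did not serve to pick the genes. Feature 3249 is annotated with AT1G35510, AT1G14970 and AT2G01480. Feature 4130 is annotated with AT5G63390, AT3G07900 and AT2G44500. No further feature listed AT4G19900. Which of the listed transcripts a feature measures is not known here, so they are called by their numbers.

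Feature 3249 gave 0.744, 0.771, 0.757, 0.88, 0.973 and 0.982 on water arrays 1 to 6. On cytokinin arrays 1 to 6 it gave 0.873, 0.933, 0.866, 0.962, 1.04 and 1.03. The groups overlapped, and arrays 5 and 6 were the highest in both, whereas water arrays 5 and 6 were the lowest for AT1G35510. The means were 0.851 ± 0.109 in water and 0.951 ± 0.0749 in cytokinin (SD, n = 6 each). The log2 change of 0.17 (SE 0.087) did not pass without a block (limma, adjusted p = 0.618) and passed with the replicate block (SE 0.041, adjusted p = 0.0305). The call under the block was lost on the means of numbers 1 and 2, 3 and 4, and 5 and 6 with these sets as a block (0.17, adjusted p = 0.279). It was also lost with the replicate block when numbers 1 and 2 (0.12, adjusted p = 0.128) or 3 and 4 (0.17, adjusted p = 0.0973) were left out, and it held without numbers 5 and 6 (0.21, adjusted p = 0.0478). It was above 0 in 6 of 6 pairs, from 0.07 in pair 6 to 0.28 in pair 2, so its smallest differences lay in the pairs with the largest rises of AT1G35510. On the values as deposited the log2 change was 0.09, and it did not pass with the block either (adjusted p = 0.112).

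Feature 4130 gave 1.23, 1.3, 1.5, 1.62, 1.33 and 1.23 on water arrays 1 to 6. On cytokinin arrays 1 to 6 it gave 1.28, 1.39, 1.43, 1.66, 1.32 and 1.29. The groups overlapped almost fully. The means were 1.37 ± 0.156 in water and 1.39 ± 0.145 in cytokinin (SD, n = 6 each). The log2 change was 0.03 (SE 0.086) and passed neither without a block (limma, adjusted p = 0.999) nor with one (SE 0.038, adjusted p = 0.673). Of the 6 pairs, 4 were above 0 and 2 below, from -0.07 to 0.10, while all 6 pairs of AT5G63390 were at -0.24 or lower. The difference between the 2 features was not tested, since feature 2772 had been picked for its fall. The sign for feature 4130 depended on the scaling, with -0.04 on the values as deposited.

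**Figure D3:**
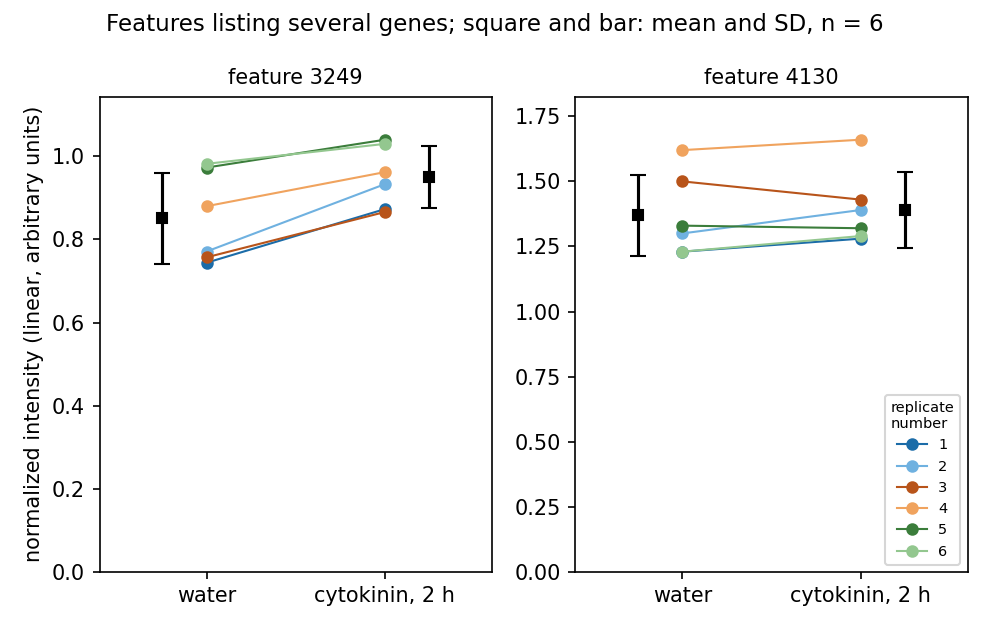
Normalized intensity (linear, arbitrary units) of feature 3249, which lists AT1G35510 with AT1G14970 and AT2G01480, and feature 4130, which lists AT5G63390 with AT3G07900 and AT2G44500, on the 12 arrays, drawn with lines between same-numbered arrays and a square and bar for mean and SD (n = 6). Lines for feature 3249 all rise by a small amount, from 0.07 to 0.28 on the log2 scale, and those for feature 4130 stay nearly level.

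Apart from the treatment, the levels of these features varied together to different degrees. Each array's log2 value was set against the mean of its own group, and Pearson's r was taken over the 12 deviations as a description. The arrays share the replicate structure given above, so these are fewer than 12 independent points. AT1G35510 and AT5G63390 had an r of 0.52, AT5G63390 and AT4G19900 one of 0.58, and AT1G35510 and AT4G19900 one of 0.14. Within the groups the values differed: on the 6 water and the 6 cytokinin arrays r was 0.41 and 0.83 for the first of these pairs of genes, 0.58 and 0.58 for the second, and -0.26 and 0.78 for the last. The O-fucosyltransferase family genes, which moved in opposite directions with cytokinin, thus had deviations of the same sign on balance within the groups. Their r of 0.52 was not unusual among the tested single-gene features. With AT1G35510, the other 612 of these had r from -0.71 (5th percentile) to 0.70 (95th percentile). With AT5G63390 these percentiles were -0.62 and 0.67. Nothing about the family is therefore inferred from this r. Feature 4130 followed both AT1G35510 (r = 0.82) and AT5G63390 (r = 0.80). With AT4G19900 its r was 0.53, with 0.15 on water and 0.89 on cytokinin arrays. Feature 3249 had an r of 0.54 with AT4G19900 (0.91 on water and 0.16 on cytokinin arrays) and of -0.06 with AT5G63390. Feature 3249 did not follow AT1G35510, although it lists that gene (r = -0.38, with -0.51 on water and 0.05 on cytokinin arrays).

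Among the other 612 tested features with exactly 1 gene, those whose deviations were most like AT1G35510 were AT3G06570 (r = 0.89), AT5G53920 (r = 0.88) and AT5G47030 (r = 0.87). The nearest to AT5G63390 were AT2G23160 (r = 0.90), AGL26 (r = 0.89) and AT4G39690 (r = 0.85). The nearest to AT4G19900 were SWAP70, AT3G17550 and AT5G05330, with r of 0.83, 0.81 and 0.78. These 9 genes passed in the comparison of water with cytokinin neither without a block (limma, adjusted p from 0.676 to 0.999) nor with it (from 0.0868 to 0.82). An r of 0.70 or more for AT1G35510, 0.67 for AT5G63390 and 0.58 for AT4G19900 was reached by 5% of these features. High values were thus common among these 12 arrays.

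Other genes of sugar transfer and the cell wall were taken from name patterns for glycosyltransferases, nucleotide sugars, glycosyl hydrolases and wall proteins, and the Golgi. These patterns could be matched only to symbols and synonyms, and 6 genes were found, all tested. By limma at the same threshold 1 of these 6 rose and 0 fell, against 1.55% of all features called in either direction. The same count passed with the replicate block, against 11.7%. The patterns were chosen with earlier results of these data known, so nothing is inferred from these counts. The median log2 change was -0.07 over the 6 genes and 0.003 over all features. The gene that rose was CSLA01, a cellulose synthase-like gene of the mannan synthase type, with a mean of 0.384 ± 0.0298 in water and 0.498 ± 0.0318 in cytokinin (SD, n = 6 each). Its log2 change was 0.38 (limma, adjusted p = 0.0124). CSLA01 was dim, and the size of its change depended on the processing. It was 0.27 on the values as deposited (adjusted p = 0.0499) and 0.24 with a pseudocount of 0.25 in place of the floor (adjusted p = 0.0212). UGT74D1, a UDP-glucosyltransferase, had a log2 change of -0.13 (SE 0.112, adjusted p = 0.881), with 2 pairs above 0 and 4 below. The others were GH9B8, GH9B11, GH9B12 and GH9B16 of glycosyl hydrolase family 9, a family of endoglucanases, with log2 changes of 0.18, -0.12, -0.13 and -0.03 (adjusted p from 0.551 to 0.999). GH9B8 had a mean of 0.21 in water, below the floor of 0.258, and 0.29 in cytokinin, so its log2 change depends on the floor. It was 0.36 with the floor at the 5th percentile, 0.11 without cytokinin array 5 and 0.05 without the arrays numbered 5 and 6, and it passed in none of these settings (adjusted p = 0.38, 0.755 and 0.837). No other O-fucosyltransferase family gene was found by symbol or synonym among the features with exactly 1 gene. Gene descriptions were not available, so this search could miss family genes and does not show that the arrays lack them. Features that list several genes were not searched. The family of the genes listed beside the members on features 3249 and 4130 was therefore not looked up. Of 25 genes of cytokinin response and turnover (type-A response regulators, cytokinin oxidases, receptors and cytokinin glucosyltransferases), 0 were listed on any annotated feature, so the treatment was not checked through them.

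The array values themselves bear on these results in 2 ways. Total intensity per array was 3743 to 3875, and the median intensity was 0.674 to 0.693 on cytokinin arrays and 0.724 to 0.744 on water arrays. Quantile normalization removed this difference, and the median log2 change of all features was 0.003 after it and -0.072 before. On the values as deposited the log2 changes were 0.64 for AT1G35510, -0.41 for AT5G63390 and 0.22 for AT4G19900, and the last missed the threshold (adjusted p = 0.117). Rises made up 70.8% of the calls over all features with quantile normalization, 39.1% without any normalization and 82.4% with median scaling. The 50 features with the nearest numbers had a median log2 change of 0.031 around AT1G35510, -0.011 around AT5G63390 and 0.026 around AT4G19900. Each of these is small beside the gene's own change.

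**Figure D4:**
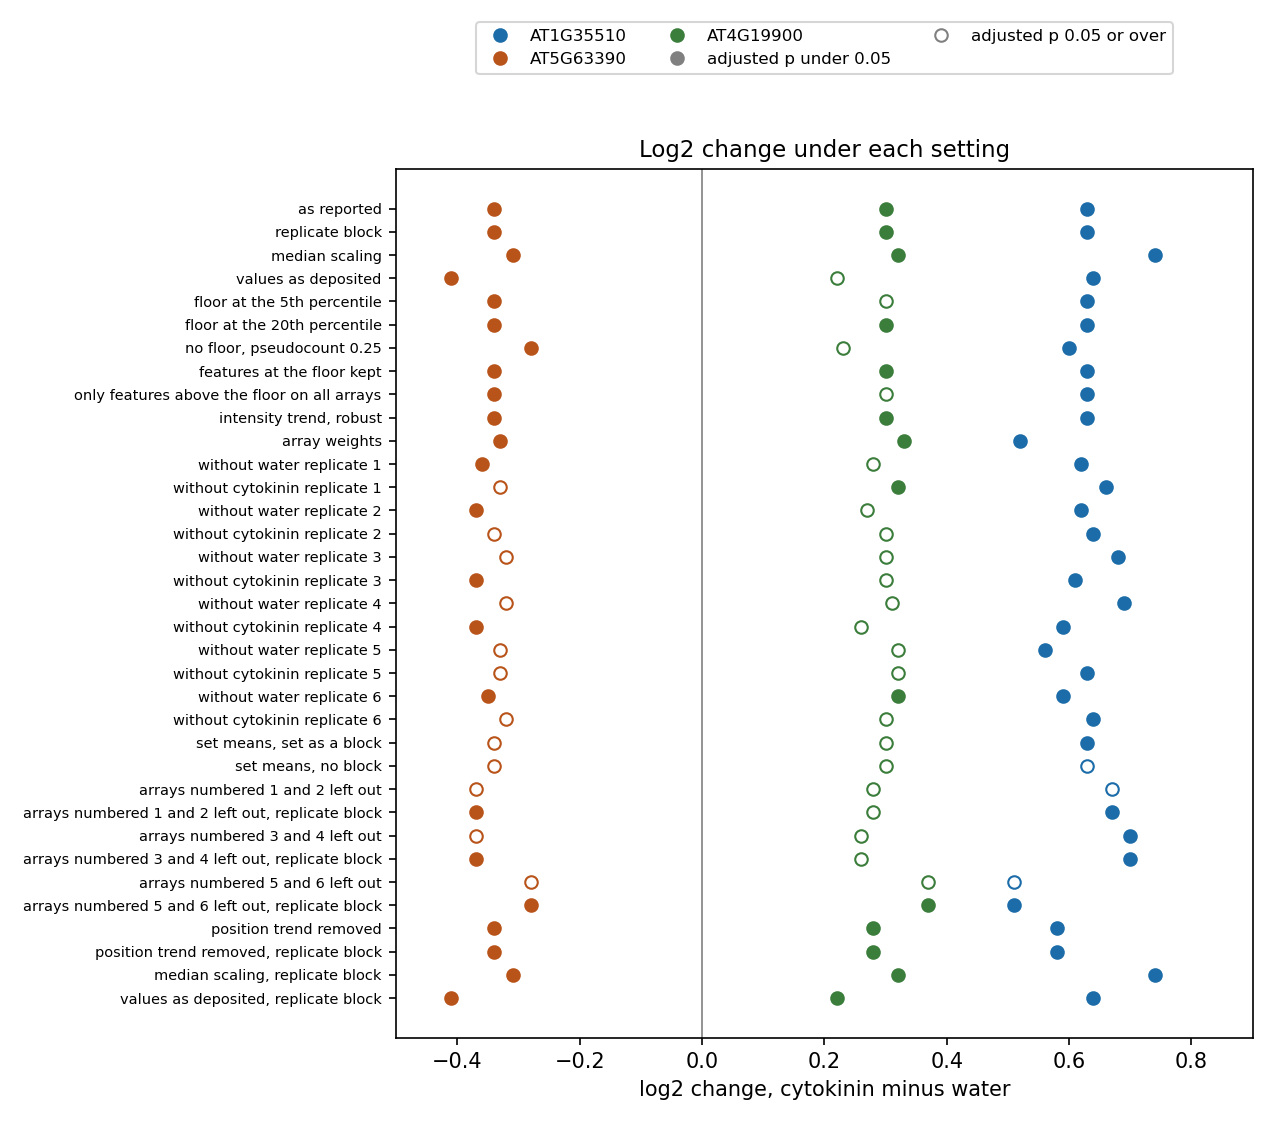
Log2 change (cytokinin minus water) of AT1G35510, AT5G63390 and AT4G19900 under each setting of the analysis, with filled points where the adjusted p was under 0.05 (limma) and open points where it was not. Changes run from 0.51 to 0.74 for AT1G35510, from -0.41 to -0.28 for AT5G63390 and from 0.22 to 0.37 for AT4G19900, and no point crosses 0.

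Refits without some arrays reuse the other arrays that chose the genes, which favours passing, so they are given as a description. Leaving out single arrays kept AT1G35510 past the threshold in 12 of 12 cases, with log2 changes from 0.56 to 0.69 (limma, adjusted p from 0.0104 to 0.043). AT5G63390 missed it in 7 of 12 cases, with changes from -0.37 to -0.32 (adjusted p up to 0.068). AT4G19900 missed it in 10 of 12 cases, with changes from 0.26 to 0.32 (adjusted p up to 0.0992), and passed only without cytokinin array 1 or without water array 6. The arrays numbered 1 and 2, 3 and 4, and 5 and 6 were also left out in turn with the replicate block kept. AT1G35510 then had log2 changes of 0.67, 0.70 and 0.51 (adjusted p = 0.033, 0.0262 and 0.0114), and AT5G63390 had -0.37, -0.37 and -0.28 (adjusted p = 0.0328, 0.0272 and 0.0225). AT4G19900 had 0.28, 0.26 and 0.37 and passed in the last of these cases alone (adjusted p = 0.0832, 0.0568 and 0.0296). With the means of these number sets as samples and the set as a block, AT1G35510 passed (adjusted p = 0.0186), and AT5G63390 (adjusted p = 0.0595) and AT4G19900 (adjusted p = 0.0908) did not.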

How the data were processed

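The authors deposited 1 table of array intensities, linear in scale, with 3439 features and 12 arrays. Their scaling, their background correction and the array type are not given in the sources used here. Genes came from the platform annotation (692 features with 1 gene, 870 with several, 1877 unnamed here), and 691 of the 692 were found in the RefSeq table of TAIR10.1 by gene ID or locus tag. That table served for names, gene type and transcript counts. Its gene positions were used to look for the protein-coding neighbours of each member, and none of these had a feature with exactly 1 gene. No sequences were used.

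Intensities were quantile-normalized, set to at least the 10th percentile of positive values (0.258) and taken to log2. Features never above this floor (348) were dropped, which left 3091 for testing. The groups were compared in R 4.3.3 by a two-sided moderated fit (limma 3.58.1, lmFit then eBayes), adjusted by Benjamini-Hochberg over all features tested, at a threshold of 0.05. The fit was also run on simulated data, to check that it returned known log2 changes on average. The simulated noise was independent between arrays, unlike that of the same-numbered arrays described below. It therefore does not test the p-values given here. Plots used matplotlib 3.10.9. The number of arrays limits the precision.

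As a check of pairing, each array's deviations from its group mean were correlated with those of the same-numbered array across features, giving 0.835, 0.839, 0.707, 0.696, 0.814 and 0.825 for numbers 1 to 6. The numbers were taken as pairs on this basis, which comes from the data and not the labels. The members, gene patterns, number sets and settings were chosen with earlier results of these data known. Named are the members, list genes, and the 3 genes most like each member in these deviations; TCP15 and Z-ISO, nearest the threshold on either side, were added after their values were seen. The features listing a member among several genes, and 2 settings that join a scaling with the replicate block, were chosen after the files were seen.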

Additional observations from a re-analysis of the deposited data

Results flagged for a closer look

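In 22 groups of 6 arrays, taken from the features of the 3 genes, the 2 features that list several genes and the 6 list genes, 1 array stood far from the rest. Cytokinin array 4 gave 1.06 for AT4G19900, against 0.845 to 0.925 on the other 5 cytokinin arrays. Chance gives about 1 in 20 groups, so 1 of 22 is near that rate. Without this array the log2 change of AT4G19900 was 0.26 and missed the threshold (limma, adjusted p = 0.069). Water array 4, at 0.768, was within its group.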

How the results depend on the processing

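No log2 change of AT1G35510, AT5G63390 or AT4G19900 turned its sign in 34 other settings each, 12 of which leave out 1 array; the settings reuse the arrays that chose the genes, which favours this. AT1G35510 missed the threshold in 3: set means without a block (0.63), and without a block on the arrays left when numbers 1 and 2 (0.67, adjusted p = 0.147) or 5 and 6 (0.51, adjusted p = 0.123) were removed. AT5G63390 missed it with set means, with and without the set as a block (-0.34 in both), and without a block when numbers 1 and 2 or 3 and 4 (-0.37 in both) or 5 and 6 (-0.28) were removed; leaving out 1 array gave -0.37 to -0.32. AT4G19900 missed it in 11 of the 22 settings other than leaving out 1 array: as deposited (0.22), with the floor at the 5th percentile or only features above the floor on all arrays (0.30 in both), with a pseudocount of 0.25 in place of the floor (0.23), with set means in both ways (0.30), and with numbers 1 and 2 (0.28) or 3 and 4 (0.26) removed, with and without the block, or 5 and 6 (0.37) without it; leaving out 1 array gave 0.26 to 0.32. Fewer samples remain where arrays are removed or averaged. Why a gene missed the threshold was not tested in any setting. The replicate block ended no call of the 3 genes and gave one to feature 3249 (adjusted p = 0.618 without and 0.0305 with it), which was lost on set means with the set as a block (adjusted p = 0.279).

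The 48 changed features became 361 with the replicate block, 478 with the block and the position trend (a running median over 51 feature numbers) removed, 477 with the block and median scaling, 837 with the block on the values as deposited, 85 with median scaling and 76 with array weights. Set means with the set as a block gave 41, and without a block 0 by limma, with 99 at an unadjusted p of 0.05. Removing numbers 1 and 2, 3 and 4, or 5 and 6 gave 7, 7 and 42 without and 111, 221 and 146 with the block, and leaving out 1 array gave 32 to 43. Of the 6 list genes, the 1 call (CSLA01) became 0 with set means without a block and with numbers 1 and 2 or 3 and 4 removed without it, and 3 as deposited with the block, while leaving out 1 array gave 1 throughout. Values near 0 turned sign: feature 4130 gave -0.01 with array weights, -0.02 with the position trend removed and -0.04 as deposited, both with and without the block, and -0.02 to 0.08 without 1 array; UGT74D1 gave 0.09 with numbers 1 and 2 removed; and GH9B16 gave 0.06 with array weights, 0.03 with numbers 1 and 2 removed, and -0.09 to 0.06 without 1 array. None of these passed the threshold (limma).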
